A study of Mus musculus with 21 samples.

Results

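The mesenchymal homeobox genes described here are Msx1, Msx2, Prrx1, Prrx2, Meox1, Meox2, Pitx1 and Isl1. They were taken by gene symbol from the 21 deposited count tables, and all 8 were found among the 48321 symbols that each table lists. The tables hold RNA-seq counts from embryoid bodies, free-floating aggregates of differentiating mouse embryonic stem cells, collected on day 3. All 7 groups of 3 samples came from A2loxCre embryonic stem cells, given the strain label C57BL/6, and each engineered line carries a coding sequence behind a promoter that doxycycline switches on. The parental A2loxCre line received doxycycline but carries no TWIST1 construct. A line with a TWIST1 monomer was collected both without doxycycline (the uninduced monomer line) and with it (the monomer line). The remaining 4 lines, all with doxycycline, express a homodimer of TWIST1 or its fusion with TCF3, TCF4 or TCF12, which are E-proteins, and the last 3 are called the heterodimer lines below. Expression was switched on 16 h before collection. The labels give neither the number of clones behind a line nor whether the samples of a group were separate cultures, so p-values measure only the spread between these samples, which may be technical. The uninduced monomer line differs from the parental line in both the integrated construct and doxycycline.

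Homeobox genes encode transcription factors with a DNA-binding homeodomain. Msx1 and Msx2 are transcriptional repressors that respond to BMP signalling in limb buds, facial primordia and other mesenchyme. Prrx1 and Prrx2 are a paralogous pair of the limb and craniofacial mesenchyme, Meox1 and Meox2 are a pair best known from the somites, Pitx1 is known for hindlimb identity, and Isl1 is a LIM-homeodomain factor of second heart field progenitors, hindlimb precursors and motor neurons. TWIST1 is a basic helix-loop-helix protein of mesoderm and neural crest mesenchyme that acts in pairs, and homodimers and E-protein heterodimers alike recognise the E-box motif CANNTG. The series asks how the choice of TWIST1 partner changes transcription in early differentiating cells.

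The promoter sequences of Msx1, Meox2 and Isl1 are shown because each holds 1 E-box, the kind of site that TWIST1 dimers bind, in a window free of annotated exons, and because these genes differ strongly in level between the lines. Each is the stretch just upstream of the RefSeq gene start in GRCm38.p6, written 5′ to 3′ on the gene's strand, with the E-box in capitals. The Msx1 window is chr5:37824586-37824835 on the minus strand, the Meox2 window chr12:37108290-37108539 on the plus strand and the Isl1 window chr13:116309690-116309938 on the minus strand.
Msx1: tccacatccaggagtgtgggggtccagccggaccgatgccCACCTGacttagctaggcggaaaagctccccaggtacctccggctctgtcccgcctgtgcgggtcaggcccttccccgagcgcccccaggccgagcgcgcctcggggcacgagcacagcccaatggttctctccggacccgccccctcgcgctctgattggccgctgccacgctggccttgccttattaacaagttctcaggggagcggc
Meox2: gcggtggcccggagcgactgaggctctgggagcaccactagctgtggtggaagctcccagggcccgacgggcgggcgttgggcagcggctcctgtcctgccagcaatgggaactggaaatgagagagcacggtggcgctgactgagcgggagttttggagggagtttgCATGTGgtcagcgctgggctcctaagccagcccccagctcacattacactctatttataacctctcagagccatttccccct
Isl1: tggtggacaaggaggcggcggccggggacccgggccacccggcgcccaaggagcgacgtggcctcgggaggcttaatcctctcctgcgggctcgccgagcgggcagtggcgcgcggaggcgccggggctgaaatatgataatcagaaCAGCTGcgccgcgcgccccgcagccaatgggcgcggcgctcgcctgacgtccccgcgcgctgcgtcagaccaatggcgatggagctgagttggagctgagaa
The E-box reads CACCTG and begins 210 bases upstream of the start in Msx1, CATGTG and 82 bases in Meox2, and CAGCTG and 103 bases in Isl1. Of the 8 genes, 6 matched the promoter table by symbol, and Meox1 and Pitx1 had no entry. In the same 250-base window before the RefSeq start Msx2 holds 1 E-box (CAGTTG, 79 bases upstream), and Prrx1 and Prrx2 hold none. However, all 250 bases of the Msx2 and Prrx2 windows and 60 bases of the Prrx1 window lie in annotated exons of the same gene. These 3 windows are thus not free of exons, unlike the sequences shown. E-boxes are common, since 66.2% of 32851 promoters hold at least 1 in a window of this length. The motif CANNTG reads the same on both strands. A tandem motif of E-boxes spaced by 5 bases (CANNTGNNNNNCANNTG, on both strands) occurs in 0.639% of the promoters and in none of the 6 windows. The letters CATATG occur in 3.46% of promoters and CATCTG, on either strand, in 14.4%, and the E-boxes of the 4 members that hold one have neither. A match is a description of the letters and not a measurement of binding.

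The depth was 6648842 to 15999693 counts per library, and 3 counts, taken as the least that a library can show, equal 0.188 to 0.451 CPM of its total, which covers counting error only. The CPM values given below are counts scaled to a common library size after adjustment for composition (TMM). In the labels' check, Twist1 averaged 8.10 ± 0.789 CPM (SD, n = 3) in parental samples and 5.06 ± 0.632 in the monomer line without doxycycline. It averaged 612 ± 31.6 CPM in the monomer line, 182 ± 16.6 in the homodimer line and 39.4 ± 2.93 to 55.1 ± 2.44 in the heterodimer lines. Tcf4 rose in its own line, from 47.5 ± 7.25 CPM in the parental line to 330 ± 22.5. Tcf3 was at 154 ± 4.52 CPM in the TCF3 line against 167 ± 5.92 in the parental line, and Tcf12 ranged from 53.1 to 118 CPM in the TCF12 line and from 91.1 to 120 CPM in the TCF3 line. These counts thus do not single out the lines labelled TCF3 and TCF12 dimer by their partner gene, and they are called the TCF3-labelled and TCF12-labelled libraries. The TCF12-labelled libraries stood apart from one another. The correlation between transcript length and a library's deviation from the other samples of its group was -0.575, 0.497 and 0.540 in samples 1 to 3, all outside the range of -0.26 to 0.281 in the 18 libraries of the other groups. Each value is taken against the other 2 samples, so 1 odd library moves the values of all 3. Sample 1 had a TMM factor of 0.865 and 18934 detected genes. Samples 2 and 3 had factors of 1.018 and 1.022, and 19888 and 20062 detected genes. The 3 TCF12-labelled tables also keep 25 gene symbols that the other 18 tables show as calendar dates, a difference in handling that cannot be told apart from the group. All 8 pluripotency markers stayed at 1 CPM or more in every group, and the embryoid bodies expressed the 8 homeobox genes at low levels, at most 50.4 CPM in any library.

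Meox2, the somite and limb muscle regulator, was nearly silent outside the heterodimer lines and present in all of their libraries. It had 0 counts in all 3 parental and in all 3 uninduced libraries, 0, 1 and 0 counts in the monomer line, and 0, 2 and 1 counts in the homodimer line. Its levels in samples 1 to 3 were 3.14, 2.12 and 2.11 CPM in the TCF3-labelled libraries, 1.81, 1.20 and 0.972 CPM in the TCF4 line, and 2.72, 2.21 and 1.21 CPM in the TCF12-labelled libraries. All 9 heterodimer samples were thus above all 12 others, whose highest was 0.179 CPM, a separation that 2.22% of all tested genes showed. Against the parental line, with a floor of 3 counts over its 3 libraries, Meox2 was at least 23.2-fold higher in the TCF3-labelled, at least 12.2-fold higher in the TCF4 and at least 18.8-fold higher in the TCF12-labelled libraries. Each difference passed edgeR's quasi-likelihood test with Benjamini-Hochberg adjustment over 14311 tested genes (adjusted p = 1.4e-05, 0.000408 and 4.95e-05). Against the single count of the monomer line the ratios were 66.5 (exact 95% counting interval 11.6 to 2654), 35.0 (6.02 to 1408) and 53.8 (9.33 to 2155). Among the 3 heterodimer lines, whose samples overlapped in part, the joint edgeR test did not pass (adjusted p = 0.114). That test passed without sample 1 of the TCF12-labelled libraries (adjusted p = 0.0451) and without sample 3 (adjusted p = 0.0339).

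Isl1, the LIM-homeodomain factor of cardiac and hindlimb progenitors, showed a similar separation with a larger gap among the heterodimer lines. In the parental line its CPM in samples 1 to 3 were 0.544, 0.433 and 0.605, against 0.812, 0.522 and 0.195 in the uninduced monomer line, 0.455, 0.450 and 0 in the monomer line, and 0.647, 0.628 and 0.205 in the homodimer line. These 4 groups overlapped one another and rested on at most 7 counts per library. It reached 9.74, 4.50 and 5.36 CPM in the TCF3-labelled libraries, 5.97, 5.00 and 5.00 CPM in the TCF12-labelled libraries and 2.04, 1.79 and 0.972 CPM in the TCF4 line. All 9 heterodimer samples again lay above the 12 others, and the TCF4 samples lay below both other heterodimer groups. The log2 fold change against the parental line was 3.60 ± 0.44 (SE) in the TCF3-labelled libraries (edgeR adjusted p = 4.14e-06) and 3.30 ± 0.45 in the TCF12-labelled libraries (edgeR adjusted p = 2.4e-05). In the TCF4 line it was 1.54 ± 0.53 and did not pass (edgeR adjusted p = 0.0675), although it passed against the monomer line (log2 fold change 2.35 ± 0.62, edgeR adjusted p = 0.00729) and in other settings, among them DESeq2 (adjusted p = 0.0242). The 3 heterodimer lines differed from one another in the joint test (edgeR adjusted p = 0.000498).

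Meox2 and Isl1 entered the test only because of the heterodimer lines, since the filter asked for about 0.968 CPM in at least 3 libraries and no library of the 4 other groups reached it. They therefore had to be high there, and their calls add nothing to a count over the members. Isl1 is also known from motor neurons, and 6 neural markers are given beside it. Their summed level ranged from 37.4 to 48.9 CPM in the parental line, 46.9 to 54.6 CPM in the uninduced monomer line, 60.4 to 65.5 CPM in the monomer line and 92.8 to 97.9 CPM in the homodimer line. It ranged from 96.2 to 114 CPM in the TCF3-labelled, 103 to 111 CPM in the TCF4 and 107 to 157 CPM in the TCF12-labelled libraries. Most of it came from Tubb3, with 38.9 ± 6.29 CPM in the parental line and 98.8 ± 7.86, 101 ± 3.76 and 117 ± 28.3 CPM in these 3 groups. Tubb3 was already at 87.4 ± 2.14 CPM in the homodimer line, where Isl1 averaged 0.493 CPM. Pax6 was highest in the homodimer line at 7.72 ± 0.604 CPM. Sox1 averaged 0.491 CPM in the parental line and 0.447, 0.296 and 0.368 CPM in the TCF3-labelled, TCF4 and TCF12-labelled libraries. Mnx1 averaged 0.390 CPM in the parental line and 0.169, 0.360 and 0.294 CPM in these libraries. In any library Neurog2 was at most 0.164 CPM, Olig2 at most 0.325 CPM and Mnx1 at most 0.812 CPM. The part of neural cells in the Isl1 values was not tested. In bulk samples a change in the number of cells that express a gene and a change in its RNA per cell cannot be told apart.

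**Figure D1:**
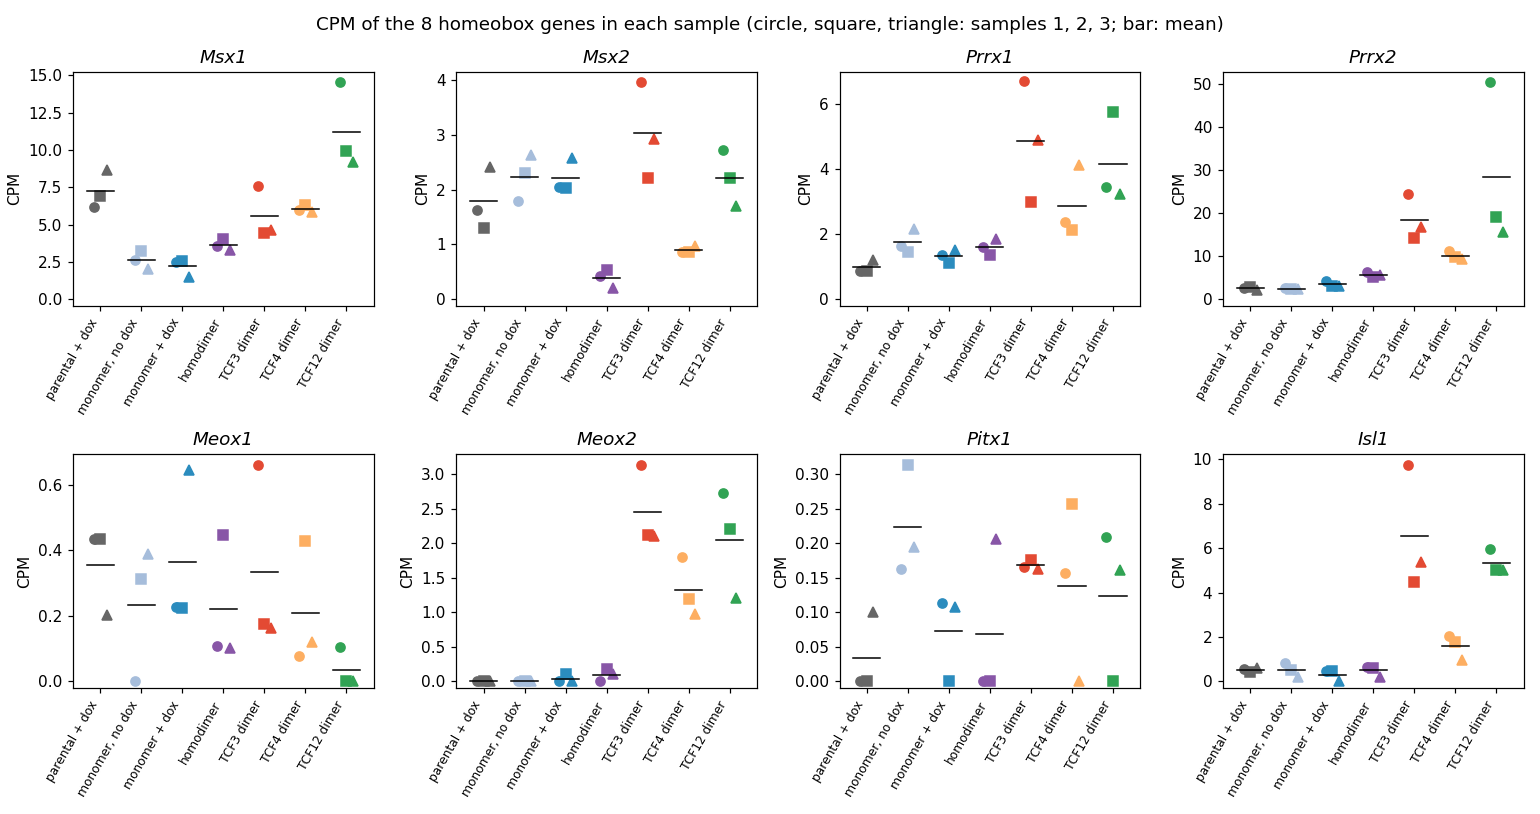
CPM (vertical axis, linear, a separate scale per gene) of the 8 homeobox genes in each of 21 samples, with groups along the horizontal axis, symbols for samples 1 to 3 and a bar at the group mean. Prrx2, Meox2 and Isl1 are above all 12 other samples in all 9 heterodimer samples, Msx2 is lowest in the homodimer line, and Meox1 and Pitx1 stay under 0.7 CPM.

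Prrx2, a regulator of limb and craniofacial mesenchyme, was the most abundant of the 8 genes in the heterodimer lines. In the parental line samples 1 to 3 gave 2.61, 2.81 and 2.22 CPM, against 2.60, 2.30 and 2.34 CPM in the uninduced monomer line, 4.32, 3.15 and 3.11 CPM in the monomer line, and 6.36, 5.11 and 5.55 CPM in the homodimer line. The heterodimer samples reached 11.2, 9.82 and 9.29 CPM in the TCF4 line, 24.4, 14.3 and 16.8 CPM in the TCF3-labelled libraries and 50.4, 19.1 and 15.6 CPM in the TCF12-labelled libraries. Ordered by mean, the groups ran from TCF12-labelled through TCF3-labelled, TCF4, homodimer, monomer and parental to uninduced. In that order the neighbours overlapped only at the top pair and at the bottom pair. The log2 fold change against the parental line was 3.46 ± 0.38 in the TCF12-labelled, 2.86 ± 0.39 in the TCF3-labelled and 1.98 ± 0.40 in the TCF4 libraries (edgeR adjusted p = 1.6e-06, 1.38e-05 and 0.0019). Without sample 1, the TCF12-labelled value was 2.76, since that library read 50.4 CPM against 19.1 and 15.6 in the other samples. In the homodimer line, whose 3 samples were all above the parental ones, the log2 fold change of 1.15 ± 0.44 did not pass (edgeR adjusted p = 0.125). It passed with DESeq2 (adjusted p = 0.0287) and in a fit of only the compared groups (edgeR adjusted p = 7.32e-05).

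Prrx1, its paralog, was lower in CPM and changed less. In the parental line samples 1 to 3 gave 0.871, 0.866 and 1.21 CPM, against 1.62, 1.46 and 2.15 CPM in the uninduced monomer line, 1.36, 1.12 and 1.50 CPM in the monomer line, and 1.62, 1.34 and 1.85 CPM in the homodimer line. The heterodimer samples read 6.69, 3.00 and 4.87 CPM (TCF3-labelled), 2.36, 2.14 and 4.13 CPM (TCF4) and 3.46, 5.74 and 3.22 CPM (TCF12-labelled). Every heterodimer sample exceeded every parental, monomer and homodimer sample, while the lowest of them, 2.14 CPM, fell just under the highest uninduced one, 2.15 CPM. Prrx1 rose against the parental line by a log2 fold change of 2.29 ± 0.36 in the TCF3-labelled, 1.57 ± 0.38 in the TCF4 and 2.06 ± 0.37 in the TCF12-labelled libraries (edgeR adjusted p = 7.26e-05, 0.00814 and 0.000381). The TCF4 call rested on sample 3, without which the log2 fold change was 1.18 (edgeR adjusted p = 0.0687), and it did not pass against the uninduced monomer line (0.73 ± 0.34, edgeR adjusted p = 0.115). The joint test among the heterodimer lines did not pass (edgeR adjusted p = 0.119), and all neighbours in the order of group means overlapped. Leaving out sample 2 of the TCF3-labelled libraries, sample 3 of the TCF4 line or sample 1 of the TCF12-labelled libraries gave adjusted p = 0.0478, 0.0401 and 0.0478.

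Msx1, a BMP-responsive repressor, differed first of all between the controls. In the parental line samples 1 to 3 gave 6.21, 6.93 and 8.67 CPM, against 2.60, 3.24 and 2.05 CPM in the uninduced monomer line, 2.50, 2.58 and 1.50 CPM in the monomer line, and 3.56, 4.03 and 3.29 CPM in the homodimer line. In the heterodimer lines it read 7.59, 4.41 and 4.63 CPM (TCF3-labelled), 5.97, 6.32 and 5.83 CPM (TCF4) and 14.6, 9.92 and 9.19 CPM (TCF12-labelled). The monomer line was below every parental sample with and without doxycycline, and the TCF12-labelled samples were above all others. Against the parental line Msx1 fell by 1.47 ± 0.26 on the log2 scale in the uninduced monomer line, by 1.73 ± 0.27 in the monomer line and by 1.00 ± 0.24 in the homodimer line (edgeR adjusted p = 0.000463, 9.52e-05 and 0.0111). Against the uninduced monomer line the homodimer value turned to 0.47 ± 0.29 and did not pass (edgeR adjusted p = 0.283). The homodimer call against the parental line was lost without parental sample 3 (log2 fold change -0.85, edgeR adjusted p = 0.0741) or homodimer sample 3 (-0.93, edgeR adjusted p = 0.0552).

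In the heterodimer lines the direction for Msx1 depended on the control. Against the monomer line it rose by a log2 fold change of 1.34 ± 0.27 (TCF3-labelled), 1.46 ± 0.27 (TCF4) and 2.34 ± 0.25 (TCF12-labelled), with edgeR adjusted p = 0.00129, 0.000363 and 8.97e-07. Against the uninduced monomer line it also rose, by 1.08 ± 0.27, 1.20 ± 0.26 and 2.08 ± 0.25 (edgeR adjusted p = 0.00429, 0.00141 and 2.15e-06). Against the parental line the values were -0.39 ± 0.22 (TCF3-labelled, edgeR adjusted p = 0.221), -0.27 ± 0.22 (TCF4, edgeR adjusted p = 0.528) and 0.61 ± 0.21 (TCF12-labelled, edgeR adjusted p = 0.0395). Without their sample 1, the TCF3-labelled libraries fell below the parental line (log2 fold change -0.67, edgeR adjusted p = 0.0406) and the TCF12-labelled call was lost (0.39, edgeR adjusted p = 0.111). The TCF12-labelled call was also lost without parental sample 1 (edgeR adjusted p = 0.135) or sample 2 (edgeR adjusted p = 0.115), and with scaling by library size only (edgeR adjusted p = 0.0569).

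Msx2, the paralog of Msx1, had a pattern of its own, with its lowest level in the homodimer line. Samples 1 to 3 gave 0.431, 0.538 and 0.205 CPM there, from 4, 6 and 2 counts, and 0.864, 0.854 and 0.972 CPM in the TCF4 line. In the remaining groups it read 1.63, 1.30 and 2.42 CPM (parental), 1.79, 2.30 and 2.63 CPM (uninduced), 2.05, 2.02 and 2.58 CPM (monomer), 3.96, 2.20 and 2.92 CPM (TCF3-labelled) and 2.72, 2.21 and 1.69 CPM (TCF12-labelled). The homodimer samples were below all others and the TCF4 samples came next, without overlap, while the other 5 groups overlapped their neighbours in the order of means. In the homodimer line Msx2 fell by 2.14 ± 0.39 on the log2 scale against the parental line and by 2.45 ± 0.38 against the monomer line (edgeR adjusted p = 0.00095 and 0.000102). In the TCF4 line it fell by 1.29 ± 0.30 against the monomer line (edgeR adjusted p = 0.00309) and by 0.98 ± 0.31 against the parental line (edgeR adjusted p = 0.042). The last call was lost in 5 of 7 fits that left out a sample and with DESeq2 (adjusted p = 0.0544). The rise in the TCF3-labelled libraries against the parental line (log2 fold change 0.76 ± 0.26, edgeR adjusted p = 0.0355) was lost in 4 of 7 such fits and with DESeq2 (adjusted p = 0.0679).

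Markers of extraembryonic endoderm, another cell type of embryoid bodies, followed Msx2 in part. All 8 were at 1 CPM or more in each group, and their summed level ranged from 365 to 406 CPM in the homodimer line and from 379 to 423 CPM in the TCF4 line. It ranged from 551 to 563 CPM for parental samples, 1936 to 2190 CPM for the uninduced and 1866 to 2032 CPM for the induced monomer line, and 1247 to 1503 CPM in the TCF3-labelled libraries. The TCF12-labelled libraries, at 313 to 452 CPM, were as low as the homodimer line in these markers but not in Msx2. The part of these cells in the Msx2 values was not tested.

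Meox1 and Pitx1 were too low to test. Meox1, the somite paralog of Meox2, had 0 to 8 counts per library and at most 0.660 CPM, and its 7 groups all overlapped their neighbours. In the TCF12-labelled libraries 1 count was found against 10 in the parental line, a ratio of 0.0830 (exact 95% counting interval 0.00191 to 0.583), and 0 or 1 counts stood in each of those 3 libraries. Pitx1, the hindlimb regulator, had at most 3 counts in any library, and part of its exons (10.3% of the bases) overlaps other annotated transcripts, one of them antisense. A difference in Pitx1 was not detectable at this depth.

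Set against the parental line, the tested members were called at different rates. Meox2 and Isl1, which had to be high in the heterodimer lines to be tested, are left out of these counts. In the monomer line 1 of the other 4, Msx1, was lower, where 9.22% of all 14311 tested genes were lower. In the uninduced monomer line Msx1 was again the 1 call of 4, where 9.43% of genes were lower. In the homodimer line 2 of 4 were lower, both Msx genes, where 4.02% of genes were. Of the same 4, 3 were higher in the TCF3-labelled libraries, where 16.3% of genes were, and 3 in the TCF12-labelled libraries, where 15.5% of genes were. In the TCF4 line 2 were higher and 1, Msx2, was lower, where 7.18% and 5.67% of genes were. These comparisons share the parental samples.

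Doxycycline in the monomer line, beside which Twist1 went from 5.06 to 612 CPM, gave a call for 0 of the 4 members Msx1, Msx2, Prrx1 and Prrx2. Meox2 and Isl1 were not called either, but no library of these groups reached the filter level for them, so they say little here. At an unadjusted p under 0.05 the count was also 0 for edgeR, DESeq2 called 0 after adjustment, and 2.00% of all tested genes were called. The log2 differences of the induced from the uninduced line were -0.26 ± 0.32 for Msx1, -0.05 ± 0.28 for Msx2, -0.40 ± 0.42 for Prrx1, 0.56 ± 0.49 for Prrx2 and -0.63 ± 0.84 for Isl1. A change of the size of these errors was not detectable here.

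**Figure D2:**
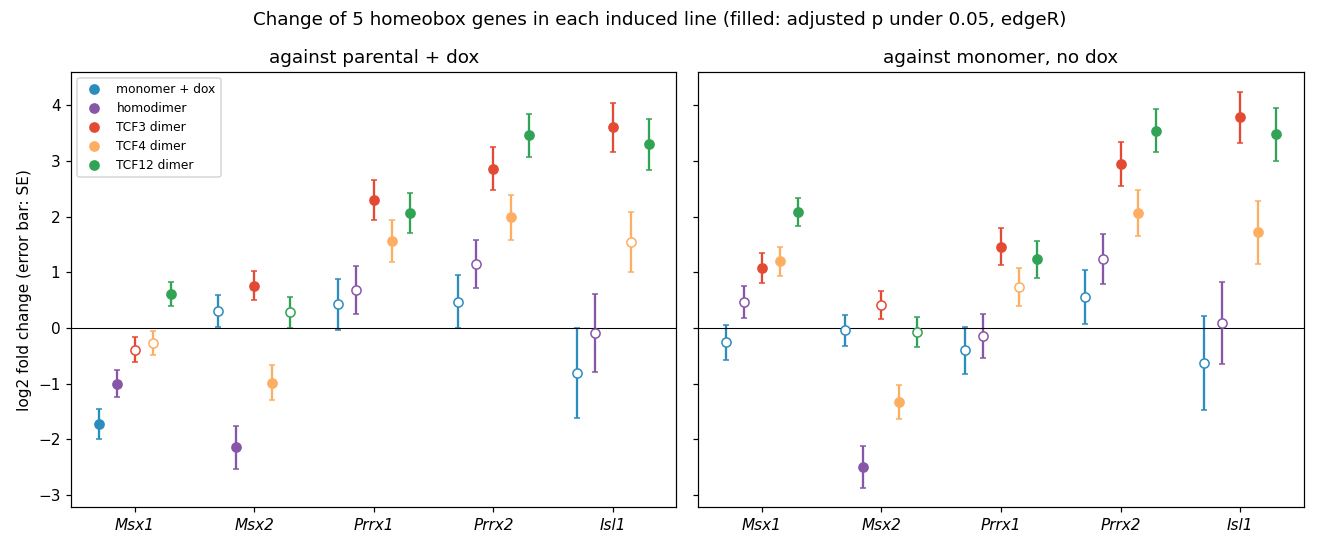
Log2 fold change (vertical axis, error bar SE) of Msx1, Msx2, Prrx1, Prrx2 and Isl1 in each induced line against the parental line (left) and the uninduced monomer line (right), filled where the edgeR adjusted p was under 0.05. Msx1 in the TCF3-labelled and TCF4 libraries lies below 0 on the left (-0.39 and -0.27) and above 0 on the right (1.08 and 1.20), while Prrx2 is above 0 in every heterodimer line on both sides.

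Against the monomer line, which carries TWIST1 without a joined partner, 1 of 6 tested members (1 of 4 without Meox2 and Isl1) was called in the homodimer line. It was Msx2, lower, where 9.31% of all tested genes were lower. Msx1 and Prrx2, at log2 differences of 0.73 ± 0.29 and 0.68 ± 0.42, did not pass (edgeR adjusted p = 0.0948 and 0.313). Both were called higher in a fit of only these groups (edgeR adjusted p = 0.0143 and 0.00512) and in a fit without sample 1 of the TCF12-labelled libraries (edgeR adjusted p = 0.0252 and 0.0182), so that 3 members differed in these fits, 2 of them higher and 1 lower. With Meox2 and Isl1 left out, 3 of 4 were higher in the TCF3-labelled (12.7% of genes higher), 3 higher and 1 lower in the TCF4 (14.5% higher and 13.0% lower) and 3 higher in the TCF12-labelled libraries (18.1% higher). Prrx2 rose there by a log2 fold change of 2.39 ± 0.37, 1.52 ± 0.38 and 2.99 ± 0.36, and Prrx1 by 1.86 ± 0.34, 1.14 ± 0.36 and 1.64 ± 0.35 (edgeR adjusted p at most 0.0236 in each). The Prrx1 call in the TCF4 line was lost without sample 3 of that line (0.75, edgeR adjusted p = 0.178) and without monomer sample 1 or 2 (edgeR adjusted p = 0.059 and 0.0885). Isl1 rose by 4.41 ± 0.50, 2.35 ± 0.62 and 4.11 ± 0.51. Twist1 itself was 612 CPM in the monomer line and 39.4 to 55.1 CPM in the heterodimer lines, and the part of its level in these differences was not tested.

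The 3 heterodimer lines together were compared with the homodimer line, which shares TWIST1 as a dimer but lacks a fused E-protein. RNA of Tcf3, Tcf4 and Tcf12 was present in the homodimer line, at 184, 42.1 and 63.5 CPM. Twist1 averaged 45.6 CPM over the heterodimer lines and 182 CPM in the homodimer line. The part of its level in these differences was not tested. Msx1, Msx2, Prrx1 and Prrx2 were all higher, where 7.99% of all tested genes were. Meox2 and Isl1, which had to be high in the heterodimer lines to be tested, were higher too. For the Msx genes this went with a fall in the homodimer line, where both were called lower against the parental line. Against the parental line Msx1 was at log2 fold changes of -0.39 (TCF3-labelled) and -0.27 (TCF4), not called, and 0.61 (TCF12-labelled), called higher. Msx2 was called higher in the TCF3-labelled (0.76), lower in the TCF4 (-0.98) and not in the TCF12-labelled libraries (0.28). Prrx1 and Prrx2 were called higher in all 3. Meox2 had 209 counts over the 9 heterodimer libraries and 3 over the homodimer libraries, a ratio of 18.96 after scaling by library size (exact 95% counting interval 6.40 to 92.7). The log2 difference was 2.90 ± 0.42 for Isl1, 2.16 ± 0.33 for Msx2, 1.62 ± 0.30 for Prrx2, 1.29 ± 0.29 for Prrx1 and 0.98 ± 0.20 for Msx1 (edgeR adjusted p from 7.79e-05 to 0.00409, with 0.000137 for Meox2). For Msx1, Msx2, Prrx1, Prrx2, Meox2 and Isl1 alike, the lowest of 9 heterodimer samples exceeded the highest of the 3 homodimer samples, as it did for 5.07% of all tested genes. Each of the 6 calls held in all 12 fits that left out 1 sample.

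Among the heterodimer lines, 4 of 6 tested members differed in the joint test, where 26.0% of all tested genes were called. Msx2 was low in the TCF4 line at 0.897 ± 0.0653 CPM, against 3.03 ± 0.884 in the TCF3-labelled and 2.21 ± 0.516 in the TCF12-labelled libraries (edgeR adjusted p = 0.000448). Isl1 was likewise lowest in the TCF4 line, at 1.60 ± 0.560 CPM. Msx1 was highest in the TCF12-labelled libraries, at 11.2 ± 2.92 CPM against 5.54 ± 1.78 and 6.04 ± 0.253 (edgeR adjusted p = 0.0025), as was Prrx2, at 28.4 ± 19.2 CPM (edgeR adjusted p = 0.0054). Without sample 1 the Prrx2 mean there was 17.4 CPM, below the 18.5 CPM of the TCF3-labelled libraries. The Msx1 and Prrx2 calls were lost when only these 9 samples were fitted (edgeR adjusted p = 0.0543 and 0.134). Single pairs of heterodimer lines were not tested.

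Several members were high together in single libraries. In sample 1 of the TCF3-labelled libraries all 6 tested members were higher than in the other samples of the group, by a median of 0.663 on the log2(CPM + 0.5) scale. In sample 1 of the TCF12-labelled libraries 5 of 6 were, with a median of 0.493. Without both libraries, the joint difference of the heterodimer lines from the homodimer line still passed for Msx1, Msx2, Prrx1 and Prrx2. Their log2 differences then ran from 0.80 for Msx1 to 2.02 for Msx2. It also passed for Meox2 and Isl1, which had to be high in the heterodimer lines to be tested.

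**Figure D3:**
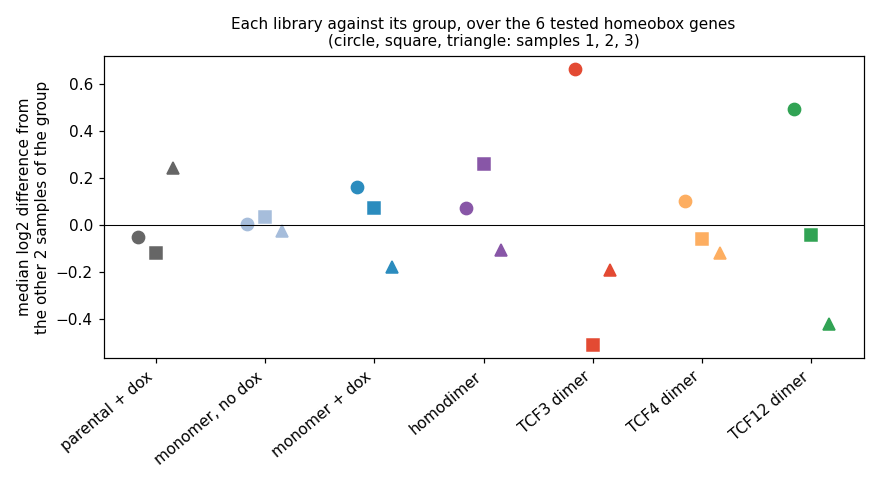
Median over the 6 tested homeobox genes of the log2 difference (log2 of CPM + 0.5, vertical axis) of each library from the other 2 samples of its group, by group. Sample 1 of the TCF3-labelled and TCF12-labelled libraries stand highest, at 0.663 and 0.493.

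Levels of different genes were compared per exon length (RPKM, CPM divided by kilobases of exon), using GENCODE M21 gene models of GRCm38. Msx1 has 3097 exonic bases, Msx2 3279, Prrx1 11066, Prrx2 1961, Meox1 2228, Meox2 2360, Pitx1 2656 and Isl1 3959. Prrx2 was above Prrx1 in all 21 samples, by a ratio of group means from 7.81 in the uninduced monomer line to 38.7 in the TCF12-labelled libraries. Without sample 1 of the latter, their ratio was 21.9, near the 21.5 of the TCF3-labelled libraries. Msx1 and Msx2 were near each other in the monomer line (0.709 and 0.675 RPKM) and far apart in the homodimer line (1.17 and 0.119 RPKM, a ratio of 9.81). Meox1 was above Meox2 in all parental, uninduced, monomer and homodimer libraries that had any Meox1 reads, and Meox2 was above Meox1 in all 9 heterodimer libraries, by 6.96 times in the TCF3-labelled and 5.98 times in the TCF4 libraries. In the TCF12-labelled libraries, with 1 Meox1 count in all, it was at least 21.4-fold higher, with Meox1 set to the floor of 3 counts over the group. Prrx2 averaged 14.5 RPKM in the TCF12-labelled libraries, at percentile 74.7 of the tested genes, and 8.86 RPKM without sample 1, against 9.42 RPKM in the TCF3-labelled libraries. Isl1 in the TCF3-labelled libraries, at 1.65 RPKM, stood at percentile 28.1.

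**Figure D4:**
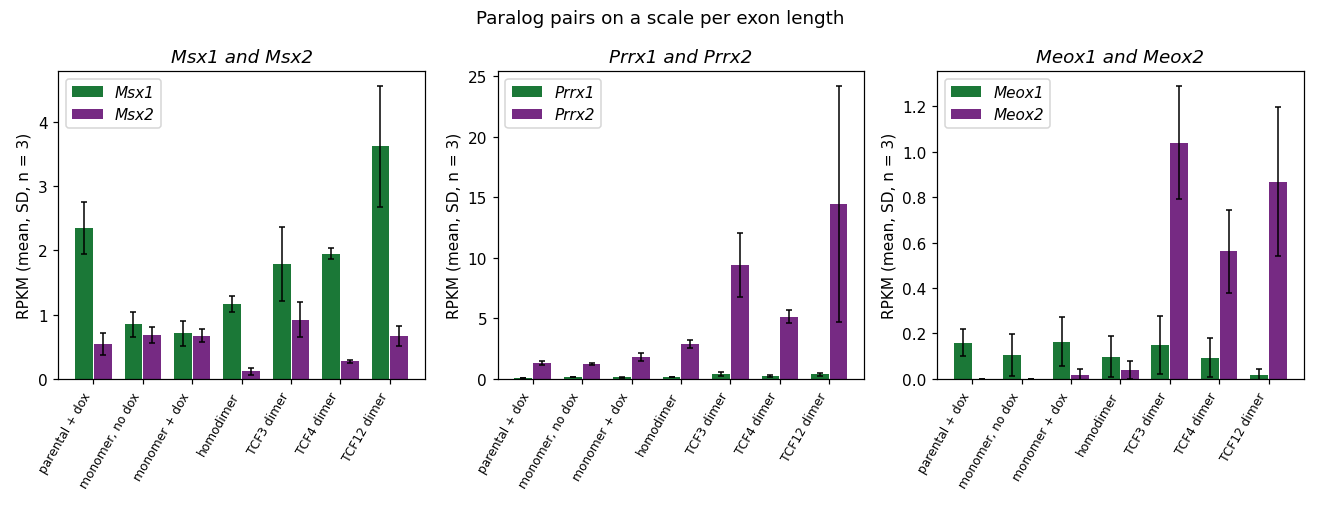
Mean RPKM (vertical axis, linear, bars from 0, error bars SD, n = 3) of the pairs Msx1 and Msx2, Prrx1 and Prrx2, and Meox1 and Meox2 in the 7 groups. Prrx2 exceeds Prrx1 in every group, by 7.81 to 38.7 times (21.9 in place of 38.7 without sample 1 of the TCF12-labelled libraries), and Meox2 exceeds Meox1 only in the 3 heterodimer lines.

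The genes lie on different chromosomes in part. In GRCm38 coordinates of GENCODE M21, Msx1 is at chr5:37820485-37824583, Prrx1 at chr1:163245119-163313710, Prrx2 at chr2:30834972-30881251, Meox1 at chr11:101877510-101894374 and Meox2 at chr12:37108540-37179534. Msx2, Pitx1 and Isl1 share chromosome 13, at 53466884-53473074, 55825051-55836192 and 116298281-116309689. None but Pitx1 overlaps the exons of another annotated gene.

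The genes with the most similar pattern were found by Pearson's r of log2(CPM + 0.5) over the 21 samples, among 14094 genes. These r values describe samples that fall into groups, so much of each value comes from differences between groups. For Prrx2 they were Fam212a (0.982) and the BMP-responsive inhibitors Id1 (0.978) and Id3 (0.973). For Prrx1 they were Snai2 (0.930), a repressor known from epithelial-mesenchymal transition, Fmnl3 (0.919) and Shisa2 (0.918). Meox2 was most like Jun (0.987) and Serpinf1 (0.978), and Isl1 most like C430049B03Rik (0.972), Sema5b (0.956) and Emilin3 (0.955). Msx2 was most like Mospd1 (0.916) and the WNT inhibitor and ligand Dkk1 (0.903) and Wnt11 (0.879), and Msx1 most like Cxxc5 (0.920), Bin1 (0.916) and Ephb6 (0.901). Msx1 and Msx2 had an r of only 0.0959 with each other.

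Other genes of the pathways around these factors were described in the same comparison of the heterodimer lines with the homodimer line. Over all tested genes 7.99% rose and 6.04% fell, with a median of 0.0126. Genes whose only libraries past the level of the low-count filter were in the heterodimer lines had to be high there and are left out of the counts. Of 19 BMP pathway genes, 17 were tested, and without Smad9, which had to be high, 8 of 16 rose and 1 fell, with a median log2 difference of 0.54. They included the ligand Bmp7 (2.35 ± 0.18), the inhibitory Smad6 (2.09 ± 0.28) and the target Id1 (1.86 ± 0.26). Of 20 limb and facial mesenchyme genes, 15 were tested, and without 3 that had to be high 8 of 12 rose and 0 fell, with a median of 1.36. Among them were Snai1 (3.20 ± 0.25), Snai2 (2.42 ± 0.31) and the hindlimb factor Tbx4 (2.26 ± 0.30). Of 12 cardiac and second heart field genes, 8 were tested, and without 3 that had to be high all of the other 5 rose, with a median of 0.60, among them Mef2c (1.87 ± 0.25) and Tbx20 (0.83 ± 0.27). Against the parental line, 4 of the 8 tested fell in the homodimer line and 0 rose, with a median of -0.95, where 4.02% of all tested genes fell. Tbx20 averaged 2.41 CPM in the parental line and 1.02 in the homodimer line, against 2.06, 1.33 and 2.19 in the TCF3-labelled, TCF4 and TCF12-labelled libraries. Mef2c averaged 1.78 and 1.64 CPM, against 6.41, 4.49 and 7.51. Of the genes that had to be high, Smad9 averaged 2.74 CPM over the heterodimer lines and 0.364 CPM in the homodimer line, Hand1 5.91 and 0.132 CPM, and Hand2 1.72 and 0.194 CPM.

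Somite genes and further homeobox genes gave mixed directions. Of 14 paraxial mesoderm and somite genes, 6 were tested, 1 rose and 3 fell, with a median of -0.08. Pax3 rose (1.87 ± 0.27), whereas Mesp2 (-1.18 ± 0.29), Dll1 (-0.94 ± 0.11) and Tcf15 (-0.51 ± 0.16) fell. Of 35 related homeobox genes, 16 were tested, and without 1 that had to be high 4 of 15 rose and 3 fell, with a median of 0.22. Those that rose included the limb and forebrain gene Lhx2 (2.88 ± 0.34) and Alx1 (0.98 ± 0.32). Alx1 averaged 2.07 CPM in the parental line and 0.918 in the homodimer line, against 1.31, 2.10 and 2.28 in the TCF3-labelled, TCF4 and TCF12-labelled libraries. All calls are edgeR adjusted p under 0.05, the largest of the named genes being 0.0496 for Alx1.

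Markers of other cell types also moved between these lines, and their part in the homeobox values was not tested. Of 6 blood and endothelial markers 3 rose and 1 fell, and their sum ranged from 125 to 134 CPM in the homodimer line and from 148 to 194, 75.8 to 82.5 and 155 to 185 CPM in the TCF3-labelled, TCF4 and TCF12-labelled libraries. Kdr, also a marker of lateral mesoderm, rose by a log2 difference of 1.87 ± 0.25 (edgeR adjusted p = 2.87e-05). Of 5 neural crest markers, 4 were tested, 2 rose and 1 fell. Their sum went from 95.3 to 97.4 CPM in the homodimer line to between 110 and 149 CPM in the heterodimer lines. Most of this rise came from Ets1, at 39.37 CPM in the homodimer line and 73.66 CPM over the heterodimer lines. Tfap2a also rose, from 0.806 to 2.28 CPM. Foxd3 fell, from 55.27 to 46.97 CPM, and averaged 32.98, 55.52 and 52.40 CPM in the TCF3-labelled, TCF4 and TCF12-labelled libraries. Sox10, a defining neural crest gene, stayed at or below 1.70 CPM in these lines. Of 6 neural markers 2 were tested and 1, Pax6, fell. Of 8 primitive streak and nascent mesoderm markers, 5 were tested, 1 rose and 1 fell. Their sums were 30.3 to 34.3 CPM in the homodimer line, 15.8 to 28.4 CPM in the heterodimer lines and 192 to 229 CPM in the parental line, with Msgn1 at 0 in every group. Of 8 extraembryonic endoderm markers 5 rose in the mean of the 3 heterodimer lines. Their sum was 1247 to 1503 CPM in the TCF3-labelled libraries, but 379 to 423 CPM in the TCF4 and 313 to 452 CPM in the TCF12-labelled libraries. In the homodimer line it was 365 to 406 CPM. Of 8 pluripotency markers 4 fell, of 5 tested trophoblast markers 1, which had to be high, rose and 1 fell, and of 2 tested surface ectoderm markers 1 fell. Lists of this size cannot be read against the 7.99% of all tested genes that rose and the 6.04% that fell.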

How the data were processed

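RNA-seq of 21 embryoid body samples was analysed from the deposited tables, 1 per sample, which hold raw counts per gene symbol. Per the submitters' processing notes, FastQC, TopHat2 and HTSeq were used with mm10 and GRCm38; versions, annotation and strand setting are not given in the sources used here. Per the labels' protocols, the TruSeq mRNA kit of Illumina was used. Since 25 symbols are dates in 18 tables, rows were matched by position.

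All 21 samples entered 1 fit with a mean per group in edgeR 4.0.16 (limma 3.58.1, R 4.3.3), with TMM factors and filterByExpr (a count of 10, a total of 15), which kept 14311 genes and 6 of the 8 members. The quasi-likelihood test was adjusted by Benjamini-Hochberg over all tested genes, with calls at 0.05. The SE of a log2 fold change comes from the F statistic. CPM use TMM-scaled library sizes, and RPKM use merged exon lengths of GENCODE M21. The method was tested on simulated data. Replicate libraries differed by more than sampling noise (chi-square per degree of freedom of 1.42 or more). Exact intervals and floors of 3 counts cover counting error only, since amplified reads are not independent molecules.

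All 8 members are reported. From each gene list, up to 4 genes with at least 1 CPM and the largest called change between heterodimer and homodimer lines were named, and for each tested member the 3 genes with the highest correlation. Some genes that meet these rules are not reported here. The members and lists were chosen with earlier results of these data known. Alternatives were DESeq2 1.42.0, other scaling factors, other filters, a replicate block, fits limited to the compared groups, the uninduced monomer line as control, leaving out each sample, and, chosen after seeing the data, a fit of 19 samples.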

Additional observations from a re-analysis of the deposited data

Results flagged for a closer look

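Without Meox2 and Isl1, all 4 other tested homeobox genes were higher in the heterodimer lines than in the homodimer line, where 7.99% of all tested genes were. The edgeR test set the mean of the 3 heterodimer group means against the homodimer mean, in the fit of all 21 samples. The homodimer side is a single line. The log2 differences were 0.98 for Msx1, 2.16 for Msx2, 1.29 for Prrx1, 1.62 for Prrx2, 4.08 for Meox2 and 2.90 for Isl1, all higher in the heterodimer lines. For Msx1 and Msx2 this went with a fall in the homodimer line against the parental line. Not every heterodimer line was above the parental line in these genes. Meox2 and Isl1 were tested only because they are high in the heterodimer lines, so their values are descriptions. The Meox2 value rests on 3 counts in the homodimer line, so its size is set in part by the prior count in edgeR.

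Msx2 also differed between the homodimer and the monomer line, where it fell by 2.45 on the log2 scale, from 2.21 to 0.392 CPM. Among the heterodimer lines the joint edgeR test gave adjusted p = 0.0025 for Msx1, 0.000448 for Msx2, 0.0054 for Prrx2 and 0.000498 for Isl1. With 3 samples per group, no test for a sample far from the others of its group was made.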

How the results depend on the processing

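Results of single members were counted once per gene, comparison and setting. Of these, 884 kept direction and side of the threshold, 23 became called, 31 lost a call and 6 turned direction. Counts of called members, taken once per comparison and setting, stayed within 1.5 times of the first fit in 191 cases and moved in 7. All 6 turns came from using the uninduced monomer line as control: Msx2 was then at -0.045 in the monomer line and -0.070 in the TCF12-labelled libraries, Prrx1 at -0.14 in the homodimer line, and Msx1 at 0.47 in the homodimer line, 1.08 in the TCF3-labelled and 1.20 in the TCF4 libraries. With that control the number of called members was 0 for the monomer line and 1 for the homodimer line. A fit of only the groups compared called 3 members between homodimer and monomer lines and 2 among the heterodimer lines. Leaving out 1 sample, or sample 1 of the TCF12-labelled libraries from the fit, gave 1 to 3 called members between homodimer and parental lines and 1 to 3 between homodimer and monomer lines.

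Whether the replicate numbers pair the samples is not given in the labels and was not settled here. The mean correlation of deviations was 0.0214 over 63 same-numbered pairs and -0.0102 over 126 others. Of the 21 samples, 12 correlated best with their own number. With the replicate block, 3 members were called between homodimer and parental lines in place of 2 (Prrx2, 1.16, adjusted p = 0.0278) and 5 between TCF4 and parental lines in place of 4 (Isl1, 1.54, adjusted p = 0.0258), 6 stayed called between heterodimer and homodimer lines, and no other count changed.

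Counts over all genes, the background used above, moved more. Only the groups compared gave 5029, 5106, 3113, 6674, 4010 and 824 genes for the uninduced, monomer, homodimer, TCF3-labelled, TCF4 and TCF12-labelled libraries against the parental line (2854, 2861, 1265, 4057, 1839 and 3864 in the first fit). It gave 4813, 5715, 6346 and 1516 for the homodimer, TCF3-labelled, TCF4 and TCF12-labelled libraries against the monomer line (2642, 3162, 3928 and 4799), 682 for induced against uninduced (286), 1310 for heterodimers against homodimer (2007) and 922 among heterodimers (3722). Without sample 1 of the TCF12-labelled libraries the same comparisons gave 5312, 5073, 2948, 6700 and 4046 against parental, 4803, 5896 and 6561 against monomer, 890, 4173 and 5789. The uninduced control gave 286, 3259 and 4620 genes for the monomer, homodimer and TCF4 lines. Without TCF12-labelled sample 3, 6165 genes differed from parental and 7219 among heterodimers; without TCF3-labelled sample 3, 2362 among heterodimers; without TCF3-labelled sample 1, 2066 between these and the monomer line; without homodimer sample 2, 1305 between heterodimers and homodimer; and 173 to 185 for induced against uninduced in 4 fits. The 19-sample fit gave 4813 for TCF3-labelled against monomer and 3906 for heterodimers against homodimer. The cause was not tested. Depth limits the low members: 3 counts equal up to 0.451 CPM, and Meox1 and Pitx1 were too low for the edgeR test.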
